A study of Saccharomyces cerevisiae with 22 samples.

Results

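The genes described here are 9 genes and intron reading frames of the mitochondrial genome of the budding yeast Saccharomyces cerevisiae. They were chosen by symbol: COX1, the reading frames AI1, AI2, AI3, AI4, AI5_ALPHA and AI5_BETA that lie in the introns of COX1, and the ATP synthase genes ATP6 and ATP8. They account for 9 of the 6388 gene probes on the array, and for 9 of its 19 probes of the mitochondrial genome. Each was measured by 1 probe printed in 2 spots. All are on the mitochondrial chromosome in the annotation used for names, where COX1 and the AI1, AI2, AI3, AI4 and AI5_ALPHA frames share a start, AI5_BETA lies inside COX1, and ATP8 and ATP6 lie outside it. The files do not give where in its gene each probe lies, so a probe named for an intron frame that shares exons with COX1 is described by its name only.

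The study profiled strains that carry alanine in place of 1 residue of a core histone. The histone H3 mutants, made in HHT2, were Q5A, R40A, G44A, R53A, N108A and L109A, and their control was hht2-wt. The histone H4 mutants, made in HHF2, were K44A, V81A and Y98A, and their control was hhf2-wt. Each of the 11 strains was grown as cultures a and b, from independent colonies per the deposited protocol text, in synthetic complete medium with glucose, and each culture was hybridised on its own array with the same pool of reference RNA, labelled wild type, which gave 22 arrays. The labels call the strain background BY4742 in every channel and name all the control and mutant strains by their histone allele. Other alleles of the strains, and whether a strain came from 1 clone, are not given in the sources used here. The sample titles also carry a number before the culture letter, and its meaning is not given. Q5A, R40A, G44A, N108A, K44A and V81A have a number other than that of their control. R53A, L109A and Y98A have the same number as their control. The dyes were swapped between cultures: the sample labels put strain RNA in the Cy3 channel for culture a and in the Cy5 channel for culture b. The design text has this order turned round, and since the labels were followed, the direction of every value rests on them.

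Mitochondrial genes are transcribed inside the organelle by a dedicated RNA polymerase, Rpo41, and not by the nuclear polymerases that work on histone-packaged DNA. COX1 encodes the catalytic core subunit of cytochrome c oxidase, the last complex of the respiratory chain, and is transcribed together with ATP8 and ATP6 in a long precursor that is then processed. Its introns are of the self-splicing kinds known as group I and group II, and several of their reading frames encode proteins that help an intron to splice or to spread: AI1 and AI2 encode reverse transcriptases with splicing activity, and AI3, AI4 and AI5_ALPHA encode DNA endonucleases. ATP6 and ATP8 encode membrane subunits of the ATP synthase. Yeast mitochondrial mRNAs lack the poly(A) tails of nuclear mRNAs, and the deposited protocol describes amplification from a T7 VN primer; how far this primer copies these RNAs was not tested.

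The strains went against their common label. BY4742 is an alpha-mating strain, yet averaged over the 11 strains all 7 a-specific genes were higher than in the reference (median log2 3.04) and all 4 alpha-specific genes were lower (median log2 -4.32). Y98A departed from this average, with 2 of the 7 a-specific genes called higher than in the reference (median log2 0.155). Its 4 alpha-specific genes were lower (median log2 -4.383). The marker gene URA3 was higher than in the reference on 22 of 22 arrays (log2 3.66 to 4.56), and MET17 was lower on every array (log2 -5.33 to -4.37). The probe of HHT2, the mutated H3 gene, was lower on every array as well (-3.57 to -1.29), and that of HHF2 ran from -1.16 to 0.07; neither probe checks a substitution. A comparison of a strain with the reference therefore also compares strain backgrounds, and the histone constructs and the background cannot be told apart in it. Between mutants and controls, 7 of 7 a-specific genes were lower in Y98A and 6 of 7 in V81A than in hhf2-wt. Their part in the values below was not tested.

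Every probe of the 9 genes gave a signal above background, by 2.6 SDs of the local background, on all 22 arrays in the strain channel. In the reference channel COX1 passed on 20 arrays and ATP6 on 21, and the other 7 passed on all 22. The margins differed widely. COX1 had a median strain signal of 1.54 times its local background and a median reference signal of 1.32 times. ATP6 was as close to its background, at 1.45 times in the strain channel and 1.38 times in the reference channel. AI4 stood at 32.8 times background in the strain channel and 21.5 times in the reference channel. Within an array the 2 spots of a probe differed by a median of 0.026 to 0.054 on the log2 scale. Over all gene probes an array's median signal lay between 297.4 and 803.4 for the strain and between 285.5 and 703.4 for the reference.

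**Figure D1:**
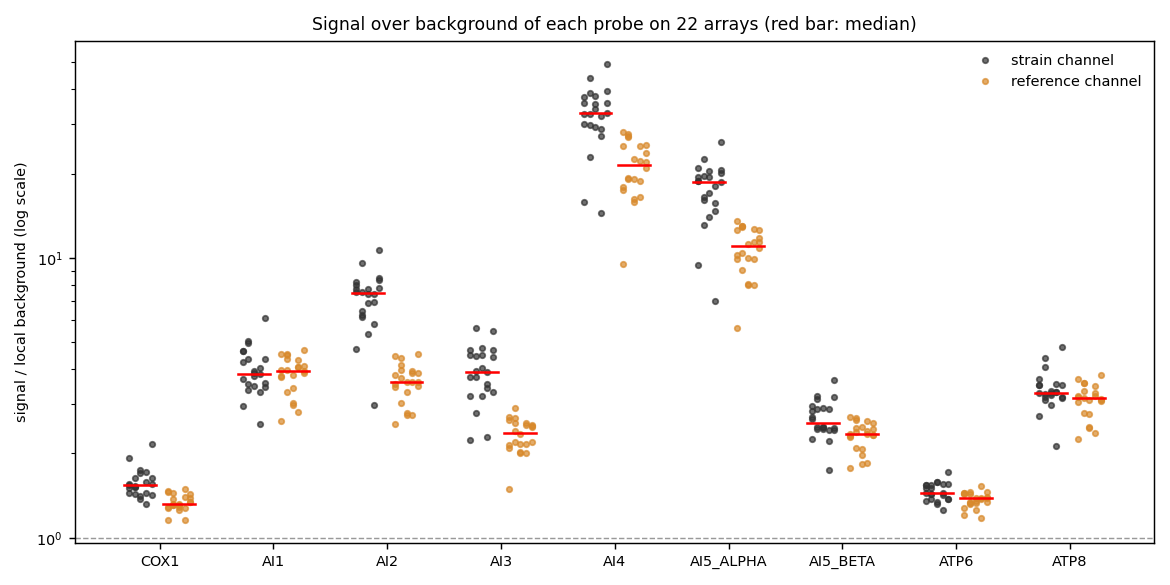
Signal divided by local background (log scale, no unit) of each of the 9 probes, for the strain channel (dark) and the reference channel (orange) of the 22 arrays; each point is 1 array and the red bar is the median. COX1 and ATP6 lie just above the dashed line at background, while the AI4 and AI5_ALPHA probes lie far above it, with strain medians of 32.8 and 18.7.

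The strains were first set against the common reference. Averaged over the 11 strains, the intron frames AI2, AI3, AI4 and AI5_ALPHA were clearly higher than in the reference, COX1 and AI5_BETA were slightly higher, and AI1 was slightly lower. AI2 was higher by a log2 fold change of 0.80 ± 0.03 (SE), or 1.74-fold, with an adjusted p of 1.8e-12. AI5_ALPHA was higher by 0.58 ± 0.02, AI3 by 0.55 ± 0.02 and AI4 by 0.51 ± 0.02 on the same scale. COX1 was higher by 0.12 ± 0.01, and AI5_BETA by 0.04 ± 0.02 with an adjusted p of 0.041; leaving out 1 array at a time, AI5_BETA was called in 7 of 22 cases. AI1 was lower, at -0.11 ± 0.03 with an adjusted p of 0.0024. The values of ATP8 (-0.04 ± 0.02) and ATP6 (-0.01 ± 0.01) did not pass the test; both were called lower with print-tip loess and with the deposited value table. Relative to their size, the small values moved most with the processing. COX1 was 0.28 with a normexp offset of 10, and AI1 was -0.22 with the deposited value table. AI5_BETA was 0.09 with print-tip loess and uncalled with the second spot alone. The larger values moved as well but stayed called. Over the settings AI3 ran from 0.499 to 0.749 and AI2 from 0.763 to 0.955. AI5_ALPHA ran from 0.448 to 0.615 and AI4 from 0.398 to 0.524. In this comparison 87.2% of all probes were called, made up of 43.7% higher and 43.5% lower, so 7 of 9 called is no more than the array as a whole. The reference is 1 RNA pool, and its own spread between cultures is not in the test.

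On single arrays the direction was steady for part of the group. AI2, AI3, AI4 and COX1 were above 0 on all 22 arrays, against 11.4% of all probes, and AI5_ALPHA was above 0 on 21. The log2 ratio of AI2 ran from 0.11 on N108A culture a, over a median of 0.83, to 1.06 on Q5A culture b. For AI5_ALPHA the lowest array was again N108A culture a at -0.07, the median was 0.59 and the highest was G44A culture a at 0.86. AI1 lay on both sides of 0, from -0.80 on N108A culture b, over a median of -0.12, to 0.21 on hhf2-wt culture a. ATP8 did so as well, from -0.49 on N108A culture b, over a median of -0.02, to 0.21 on hhf2-wt culture b. The lowest array was an N108A array for all 9 probes. The share of all probes for which this held was not counted. Among the other mitochondrial probes it held for BI2, BI3, BI4, VAR1 and SCEI, but not for COB, OLI1, COX2, Q0255 and COX3.

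Taken strain by strain, 50 of the 99 pairs of gene and strain were called higher than the reference and 6 lower. Among all probes the share called was 57% in Q5A, 62.7% in R40A, 73% in G44A, 54.6% in R53A, 67% in N108A, 46.6% in L109A, 65.7% in K44A, 55.3% in V81A, 61.1% in Y98A, 47.4% in hht2-wt and 48.7% in hhf2-wt. AI2 and AI3 were called higher in every strain, and AI4 and AI5_ALPHA in every strain but N108A. The called lower values were AI1, AI5_BETA, ATP6 and ATP8 in N108A, and AI1 in R53A and hht2-wt. N108A thus had 2 called higher and 4 called lower, where 34.2% of all probes were higher and 32.8% lower, and was the only strain with more than 1 called lower. The deposited value table, used in place of the scanner intensities, gave 14 called lower in all.

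**Figure D2:**
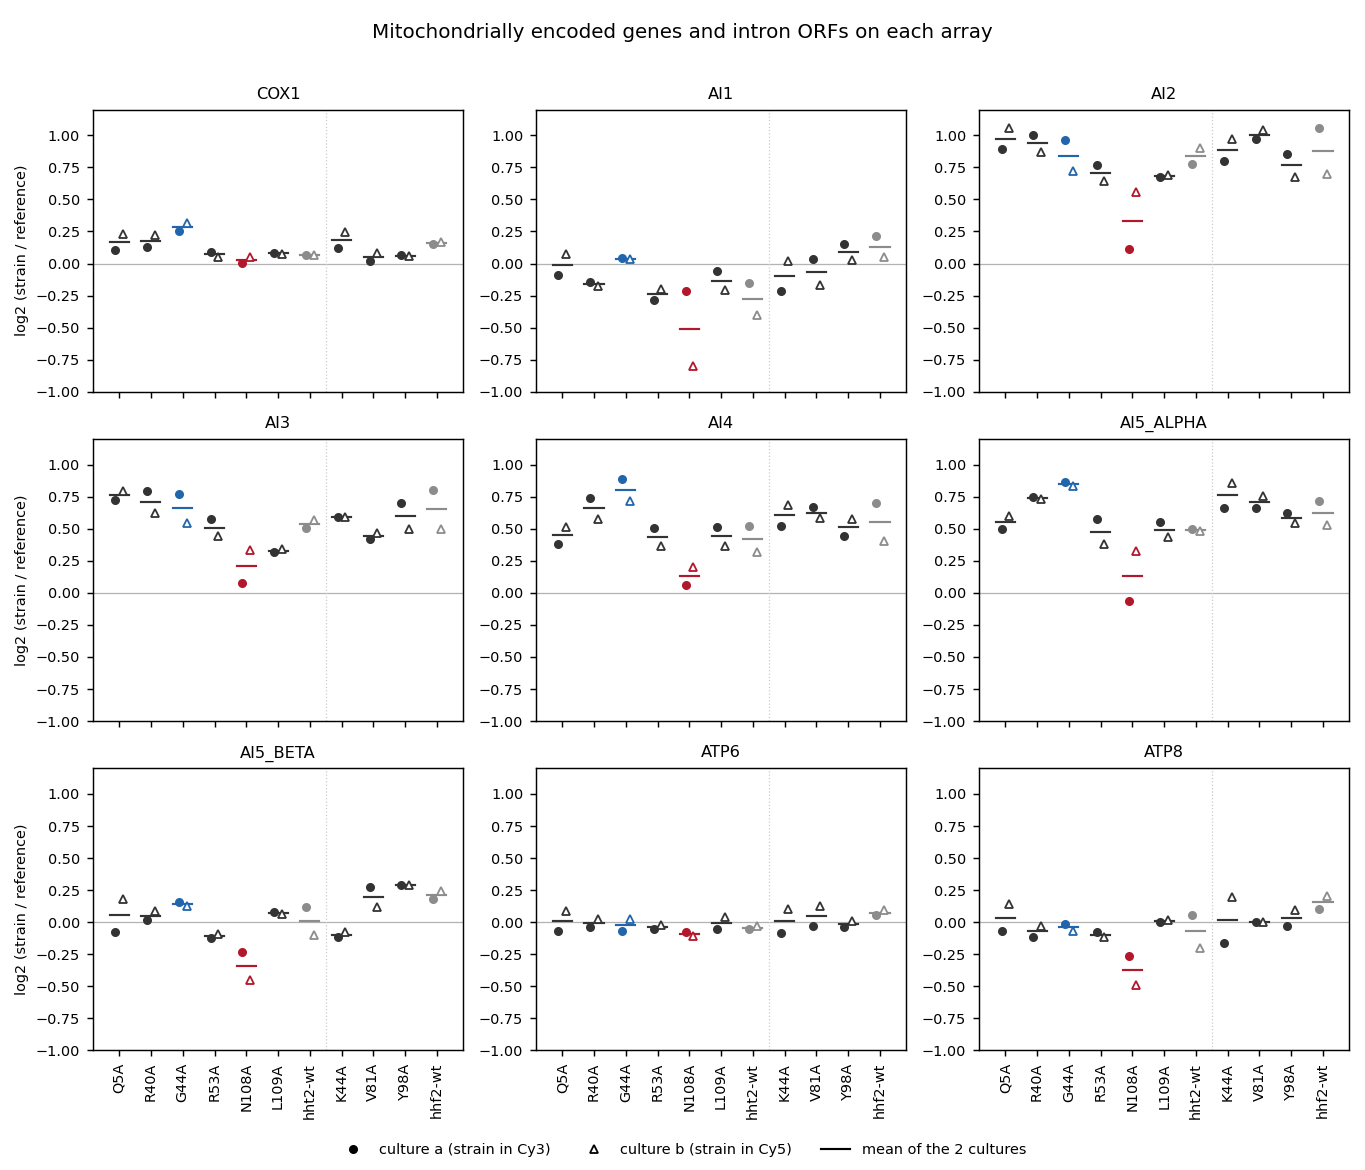
Log2 ratio of strain over reference for the 9 probes on each of the 22 arrays; circles are culture a (strain in Cy3), triangles culture b (strain in Cy5) and bars the mean of the 2, with mutants left of the control of their own histone and the dotted line between H3 and H4 strains. N108A (red) has the lowest mean in all 9 panels, and G44A (blue) the highest in COX1, AI4 and AI5_ALPHA.

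Across the 11 strains 7 of the 9 genes varied beyond the spread between cultures (F test over the strains), against 79.4% of all probes. The exceptions were ATP8 (adjusted p = 0.050, just above the threshold) and ATP6 (adjusted p = 0.27). The strain mean of AI5_ALPHA spanned 0.72 on the log2 scale, that of AI2 and AI4 0.67 each, and that of ATP6 0.17, against a median span of 0.42 over all probes. N108A had the lowest mean for all 9 genes, as it did for 11.1% of all probes. Among the other mitochondrial probes it was also lowest for COB, BI2, BI3, BI4, VAR1, SCEI, Q0255 and COX3, but not for OLI1 and COX2. Of these, COB and Q0255 were above background on 0 of 22 arrays, so the low place of N108A was not particular to the 9 genes. Both N108A cultures lay below all 20 other arrays for AI2, AI4, AI5_ALPHA, AI5_BETA and ATP8, which was so for 2.19% of all probes. At the top of the order stood G44A for COX1, AI4 and AI5_ALPHA, hhf2-wt for AI1, ATP6 and ATP8, V81A for AI2, Q5A for AI3 and Y98A for AI5_BETA.

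Between those ends most strains could not be ordered. Of the 10 pairs of neighbouring strains in each order, 7 (AI5_BETA) to 9 (AI1, AI2, AI4, AI5_ALPHA and ATP6) had cultures that overlapped. AI2 shows the pattern: N108A stood 0.35 below L109A, its neighbour in the order, without overlap, and the other 9 steps were 0.07 or less and all overlapped. In COX1 the topmost step was free of overlap too, G44A standing 0.10 above K44A.

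The comparison that bears on the histone substitutions sets each mutant against the control of its own histone. Of the 81 pairs of gene and mutant, 3 were called higher and 5 lower, while 0.0626% (L109A) to 46.3% (G44A) of all probes were called in a mutant. The higher ones were all in G44A, and 4 of the 5 lower ones were in N108A, the fifth being AI5_BETA in K44A. These mutants all differ from their control in the title number as well. So do Q5A, R40A and V81A, which had no called pair. Among all probes, 14.7% (R40A) to 46.3% (G44A) were called in the mutants that differ in this number. The share was 0.673% in R53A, 0.0626% in L109A and 30.6% in Y98A, which do not. The part of the number in the calls was not tested. RNA was taken from whole cultures, so fewer cells that carry these transcripts and less transcript per cell cannot be told apart.

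In N108A the intron frames AI2, AI3, AI5_ALPHA and AI5_BETA were lower, while AI1 and AI4 did not pass the test. The called genes were 4 of 9, where 28.6% of all probes were called, 12% lower and 16.6% higher. All 9 log2 fold changes were below 0, with a median of -0.31 against a median of -0.004 over all probes. COX1 itself, at -0.04 ± 0.05, and ATP6, at -0.05 ± 0.05, were close to 0, and both are the probes nearest to background.

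AI2, one of the reverse-transcriptase frames, had log2 ratios of 0.11 and 0.55 in N108A cultures a and b, against 0.77 and 0.90 in hht2-wt. Both N108A cultures were lower than both control cultures, and culture a was the lower of the pair by 0.44, the widest gap between cultures of any strain for this probe. The fold change was -0.50 ± 0.14 (0.71-fold, adjusted p = 0.016). AI5_ALPHA, an endonuclease frame, had ratios of -0.07 and 0.32 in N108A, against 0.50 and 0.48 in hht2-wt. The control cultures nearly coincided and both N108A cultures lay below them, with a fold change of -0.36 ± 0.11 (adjusted p = 0.024). AI3, another endonuclease frame, had ratios of 0.08 and 0.33 in N108A, against 0.50 and 0.57 in hht2-wt. Its groups did not overlap, and the fold change was -0.33 ± 0.11 (adjusted p = 0.032). This call was lost with print-tip loess (adjusted p = 0.057), median centring, the deposited value table (0.076) and no replicate block (0.051), and kept in 8 of 12 alternative settings. AI5_BETA, a frame inside COX1 whose product has no function known for certain, had ratios of -0.23 and -0.45 in N108A, against 0.12 and -0.10 in hht2-wt. Here culture b was the lower one in both strains, and the fold change was -0.35 ± 0.09 (adjusted p = 0.010), a call lost with median centring.

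AI4 and ATP8 lay just outside the threshold. AI4 had ratios of 0.06 and 0.20 in N108A, against 0.52 and 0.32 in hht2-wt, without overlap, and a fold change of -0.29 ± 0.11 (adjusted p = 0.053). ATP8 had ratios of -0.26 and -0.49 in N108A, against 0.06 and -0.20 in hht2-wt, also without overlap, and a fold change of -0.30 ± 0.11 (adjusted p = 0.057). AI1 was the most scattered of the group. Its ratios were -0.21 and -0.80 in N108A, against -0.16 and -0.40 in hht2-wt, so culture a of N108A lay between the control cultures, and the fold change of -0.23 ± 0.14 did not pass (adjusted p = 0.24). In all, 8 of 9 probes had cultures that did not overlap between N108A and hht2-wt, against 55.2% of all probes.

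The calls in N108A changed with the cultures used. A group left with 1 culture was assumed to vary like the other strains in the fit. Left with 1 culture of N108A or of hht2-wt, the count of called lower genes was 3 without N108A culture a, 4 without N108A culture b, 1 without hht2-wt culture a and 2 without hht2-wt culture b. Of the 4 named above, AI5_BETA alone was called without N108A culture a, and AI2 alone without hht2-wt culture a. The fold change of AI2 then ran from -0.75 to -0.26, that of AI3 from -0.50 to -0.16, that of AI5_ALPHA from -0.57 to -0.15 and that of AI5_BETA from -0.46 to -0.24. The N108A arrays also differed in overall brightness: the median strain signal was 309.5 for culture a and 803.4 for culture b, the highest of all arrays, with median reference signals of 369.7 and 436.6. Whether brightness had a part in the values was not tested.

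The choice of control moved the count as well. Against hhf2-wt, 8 of 9 genes were called lower in N108A, all but COX1 (-0.13, adjusted p = 0.055), with AI1 at -0.64, AI5_BETA at -0.55 and ATP8 at -0.53. The share of all probes called was not counted for this comparison, so the 8 of 9 has no background beside it. The authors' deposited table lists N108A with all 9 genes lower, from -0.14 (COX1) to -0.58 (AI1), and with corrected p-values of 3.53e-05 to 0.0174. Its fold changes equal the difference of N108A from hhf2-wt in the deposited value table, not from hht2-wt (median absolute difference over probes 6.75e-07 against 0.0326). The same control was used there for the other mutants. With a threshold of 0.05, that table also lists some of the genes as lower in each of them. In R53A these are AI1 (-0.368), AI4 (-0.196), AI5_ALPHA (-0.192), AI5_BETA (-0.33) and ATP8 (-0.237). In G44A they are ATP6 (-0.184) and ATP8 (-0.235), while COX1 is listed as higher (0.152).

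In G44A, an H3 substitution as well, COX1 and the endonuclease frames AI4 and AI5_ALPHA were higher than in hht2-wt, 3 of 9 where 23.9% of all probes were called higher. The shares are close, so the count alone does not set the group apart. All 9 fold changes were above 0, with a median of 0.13 against -0.01 over all probes. This was not particular to G44A: against the same control all 9 were above 0 in Q5A (median 0.105) and 8 in R40A (median 0.112). COX1 had log2 ratios of 0.26 and 0.31 in G44A cultures a and b, against 0.06 and 0.07 in hht2-wt. The groups were well apart, although the change was small, at 0.22 ± 0.05 (1.16-fold, adjusted p = 0.0020), and came from a probe near background. With a normexp offset of 10 in place of 50 it was 0.39 (adjusted p = 0.00089). AI4 had ratios of 0.89 and 0.71 in G44A, against 0.52 and 0.32 in hht2-wt, a fold change of 0.38 ± 0.11 (adjusted p = 0.0088). AI5_ALPHA had ratios of 0.86 and 0.83 in G44A, against 0.50 and 0.48 in hht2-wt, a fold change of 0.36 ± 0.11 (adjusted p = 0.015).

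Over the 9 genes, 5 had cultures that did not overlap between G44A and hht2-wt, against 60.5% of all probes. The other frames did not follow them past the threshold in G44A. AI1 had ratios of 0.04 and 0.04 in G44A, against -0.16 and -0.40 in hht2-wt, and its fold change of 0.32 ± 0.14 missed it (adjusted p = 0.071). AI2 had ratios of 0.96 and 0.72 in G44A, against 0.77 and 0.90 in hht2-wt, which overlapped fully, and a fold change of 0.00 with a 95% interval from -0.30 to 0.31. AI3 (0.13 ± 0.11) and AI5_BETA (0.13 ± 0.09) were not called, nor were ATP8 (0.03 ± 0.11) and ATP6 (0.02 ± 0.05). Without 1 culture in turn, COX1 stayed called (0.20 to 0.24). AI4 was not called without G44A culture a or hht2-wt culture b (0.30 to 0.46 over the left-out cultures), and AI5_ALPHA was called only without G44A culture b (0.34 to 0.38). Against hhf2-wt the only called gene was COX1, at 0.13 (adjusted p = 0.041), with AI4 at 0.25 (adjusted p = 0.065) and AI5_ALPHA at 0.23 (adjusted p = 0.10). Median centring in place of loess, and a fit of only the arrays compared, each left COX1 uncalled, and the deposited value table left AI5_ALPHA uncalled.

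**Figure D3:**
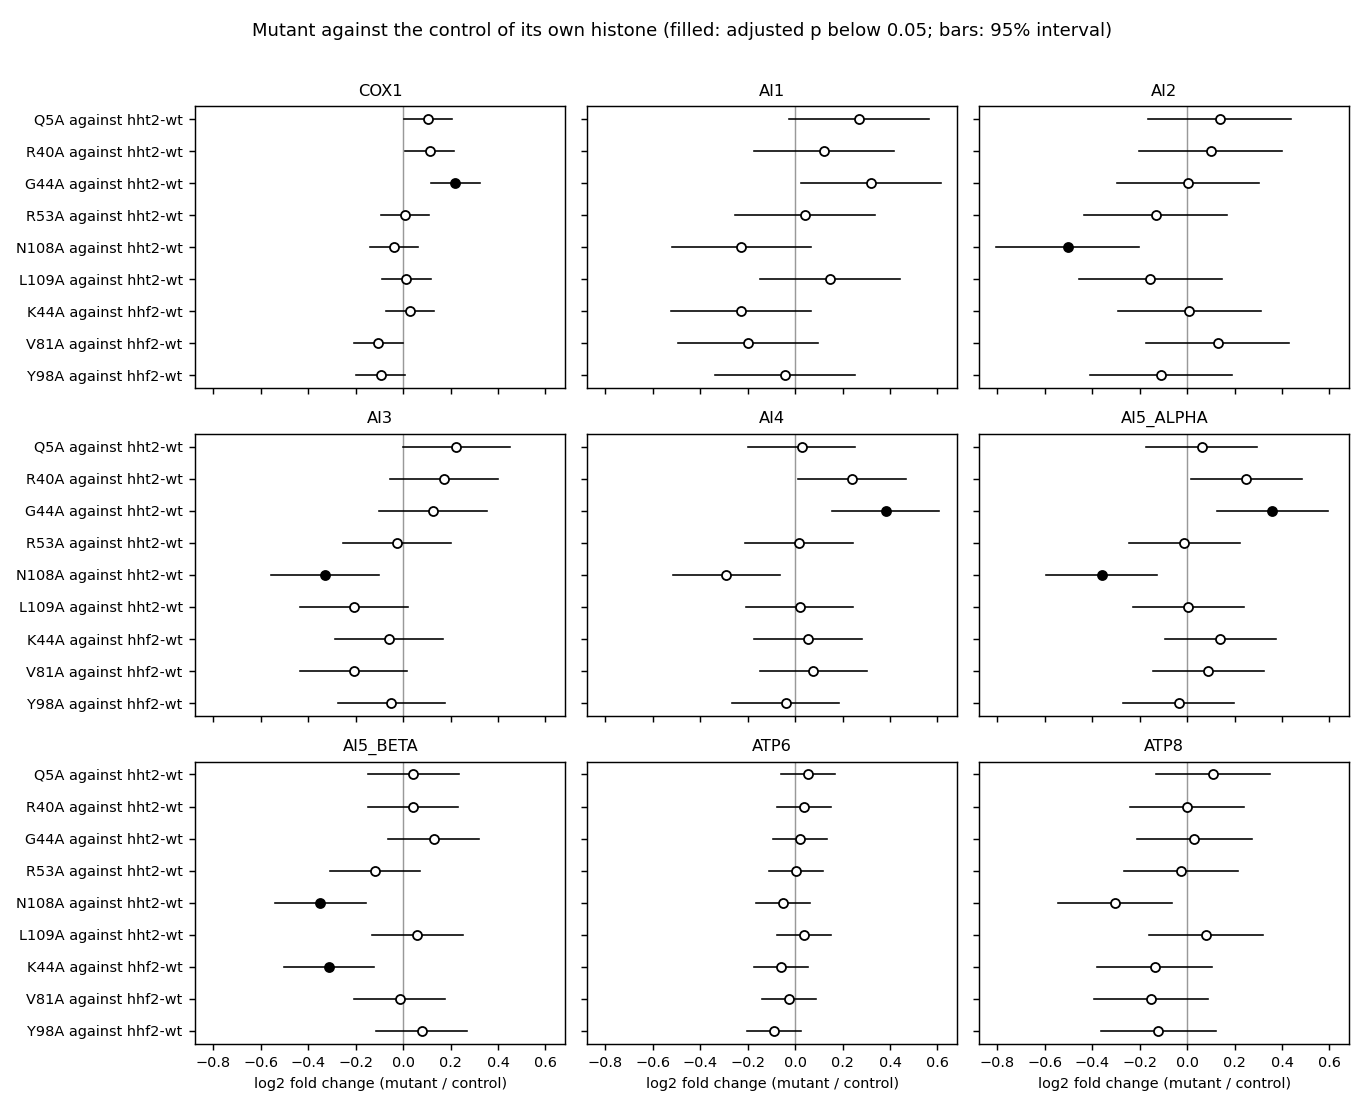
Log2 fold change of each of the 9 mutants against the control of its own histone, in 1 panel per gene; points are estimates from the fit of 22 arrays, bars are 95% intervals, and filled points have an adjusted p below 0.05. The filled points are COX1, AI4 and AI5_ALPHA to the right of 0 in G44A, AI2, AI3, AI5_ALPHA and AI5_BETA to the left of 0 in N108A, and AI5_BETA to the left of 0 in K44A.

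K44A, an H4 substitution, had 1 called gene, where 29.5% of all probes were called and 13.6% were lower. AI5_BETA had log2 ratios of -0.12 and -0.08 in K44A cultures a and b, against 0.18 and 0.24 in hhf2-wt. The groups did not overlap, and the fold change was -0.31 ± 0.09 (adjusted p = 0.017). Left with 1 culture of K44A or hhf2-wt it ran from -0.36 to -0.27 and was called only without hhf2-wt culture a. The call was also lost with median centring and with the first spot of each probe alone (-0.25, adjusted p = 0.058). Against hht2-wt it was -0.11 (adjusted p = 0.39). The other 8 genes were not called in K44A, with fold changes from -0.23 (AI1) to 0.14 (AI5_ALPHA).

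In the remaining mutants limma called 0 of the 9 genes, where it called 18.9% of all probes in Q5A, 14.7% in R40A, 0.673% in R53A, 0.0626% in L109A, 33.9% in V81A and 30.6% in Y98A. At an unadjusted p under 0.05 the number was 1 in Q5A and 3 in R40A (31.2% and 28.5% of all probes), 1 in V81A (43.8%), and 0 in R53A (9.1%), L109A (4.23%) and Y98A (40.8%). In R40A the 3 were AI5_ALPHA at 0.25 ± 0.11, AI4 at 0.24 ± 0.11 and COX1 at 0.11 ± 0.05, all with adjusted p of 0.14 to 0.15. In Q5A it was COX1 at 0.10 ± 0.05 (adjusted p = 0.15), and in V81A COX1 at -0.10 ± 0.05 (adjusted p = 0.11). The 95% intervals in L109A, the substitution next to N108A in the H3 sequence, ran from -0.46 to 0.14 for AI2 and from -0.23 to 0.24 for AI5_ALPHA.

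The control strains were compared with each other to see how far unmutated strains differed. Between hht2-wt and hhf2-wt 0 of 6388 probes (0%) were called by limma, and at an unadjusted p under 0.05 there were 3 of the 9 genes against 1.1% of all probes. All 9 values were below 0, 6 of them without overlap of the cultures (14.4% of all probes), with a median of -0.13 against -0.004 over all probes. AI1 had ratios of -0.16 and -0.40 in hht2-wt, against 0.21 and 0.05 in hhf2-wt, a difference of -0.41 ± 0.14 (unadjusted p = 0.0094, adjusted p = 1). AI5_BETA differed by -0.20 ± 0.09 and ATP6 by -0.12 ± 0.05. Changing the control of a mutant shifts its value by these differences.

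The called genes of N108A and G44A lay on opposite sides of hht2-wt, which both comparisons share, so N108A was also set directly against G44A, a test added after the values were seen. The pair was taken from the ends of the order of strains, which favours a difference, and the adjusted p-values do not allow for that choice. In it 8 of 9 genes were called lower in N108A and 0 higher, where 16.1% of all probes were called lower. The ratios of AI5_ALPHA, -0.07 and 0.32 in N108A against 0.86 and 0.83 in G44A, gave the widest difference, -0.72 ± 0.11 (0.61-fold, adjusted p = 0.00035). AI4 differed by -0.67 ± 0.11 and AI1 by -0.55 ± 0.14, and ATP6, at -0.07 ± 0.05, was not called. Without G44A culture a the count was 5. Against L109A, also added after the values were seen, 4 of 9 were called lower in N108A, where 9.33% of all probes were called lower. They were AI5_BETA (-0.41 ± 0.09), ATP8 (-0.38 ± 0.11), AI5_ALPHA (-0.37 ± 0.11) and AI4 (-0.31 ± 0.11). Without either L109A culture only 1 of 9 was called lower, and with median centring in place of loess 2 were.

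Likeness among the 9 genes differed from pair to pair. Every pair had a positive Pearson r over the 11 strain means, the lowest for COX1 and AI5_BETA (0.23, and -0.08 without N108A). Over the 11 strain means, which share the arrays and the reference, AI4 and AI5_ALPHA varied together with a Pearson r of 0.98, and 0.97 without N108A. AI1 went with ATP8 (r = 0.90, and 0.79 without N108A), and ATP6 with ATP8 (0.87 and 0.83). COX1 and AI4 had an r of 0.74, and 0.71 without N108A. Several other pairs lost part or all of their likeness without N108A: AI4 and ATP8 had an r of 0.61 over the 11 strains and -0.03 over the 10, AI2 and AI5_BETA had 0.66 and 0.17, AI2 and ATP6 had 0.76 and 0.53, and AI1 and AI4 had 0.70 and 0.38. These are descriptions over 11 points, and the part of noise in the probes near background, COX1 and ATP6, was not tested.

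**Figure D4:**
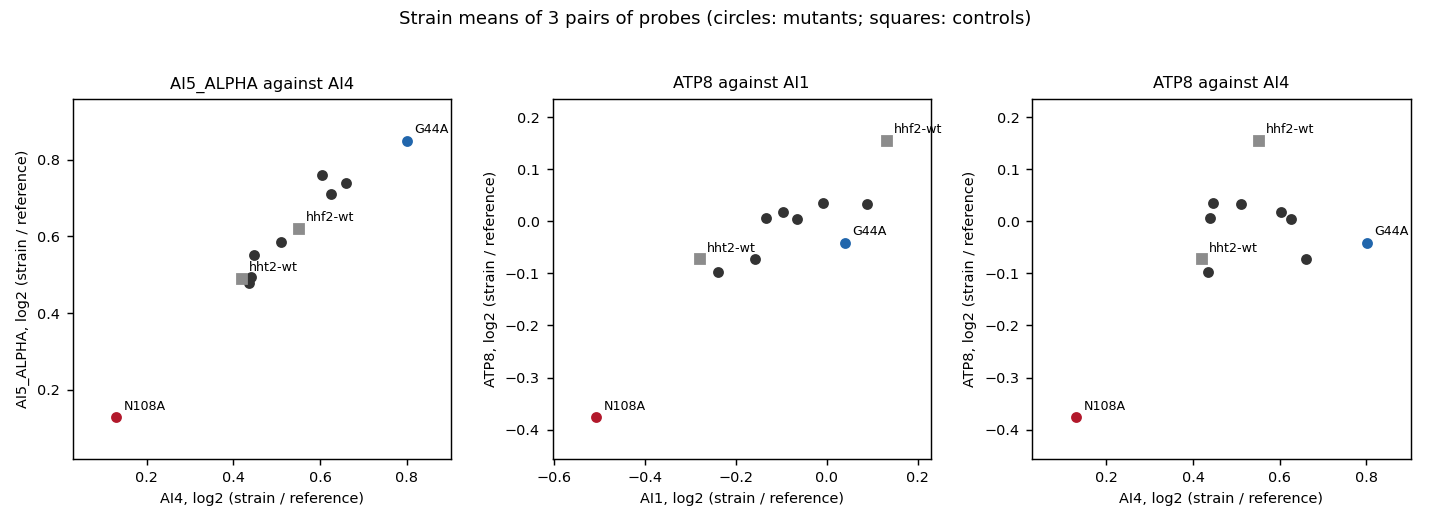
Strain means of log2 strain over reference for 3 pairs of probes, with 11 points each; circles are mutants, squares controls. AI5_ALPHA follows AI4 through all strains (r = 0.98), ATP8 follows AI1 (r = 0.90), and ATP8 has no likeness to AI4 once N108A, at the lower left, is set aside (r = -0.03).

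Among 2065 probes outside the mitochondrial genome whose strain means spanned at least 0.5, those most like the mean of the 9 genes over the 11 strains were SDL1 (r = 0.82), PTR2 (0.76), MRP51 (0.73), RTS2 (0.71) and AGP1 (0.70). PTR2 and AGP1 are permeases of peptides and amino acids, and MRP51 is a protein of the mitochondrial ribosome. The least alike were YJR079W (-0.87), BNA2 (-0.83) and PRM1 (-0.83); BNA2 acts in NAD synthesis. The order depended on N108A, the strain farthest from the median. Without it SDL1 had an r of 0.18 and ranked 764 of 2065, and PTR2 had 0.55 and ranked 22.

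The other genes of the mitochondrial genome gave the nearest point of comparison. COB and Q0255 were above background on 0 of 22 arrays in either channel, and COX3 was above it on 17 in the strain channel and 7 in the reference channel. OLI1, which encodes the ring subunit of the ATP synthase and is transcribed apart from COX1, was the brightest over its background, at 58 times in the strain channel and 37.3 times in the reference channel. It was higher in G44A than in hht2-wt, with ratios of 1.06 and 0.95 in G44A against 0.49 and 0.22 in hht2-wt (0.65 ± 0.13, adjusted p = 0.0012). In N108A its ratios were 0.35 and 0.11, which overlapped those of hht2-wt (-0.13 ± 0.13, adjusted p = 0.51). Q5A had it lower, at -0.19 and 0.02 against 0.49 and 0.22 in hht2-wt (-0.44 ± 0.13, adjusted p = 0.031). Of the 10 other probes, 1 was called lower in N108A, the intron frame BI3 of COB (-0.13 ± 0.04). The share of all probes called lower there was 12%. The 10 fold changes in N108A ran from -0.143 (COX2) to -0.052 (COX3), with a median of -0.101 against -0.004 over all probes. At an unadjusted p under 0.05 by limma there were 4, against 39.8% of all probes. In G44A OLI1 was called higher and COX2 lower (-0.18 ± 0.06). Of all probes, 23.9% were called higher there and 22.4% lower. BI3 and COX2 are both close to background, at 1.47 and 1.67 times in the strain channel.

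Nuclear genes that serve these transcripts were counted in the same fit. In N108A 28.6% of all probes were called, 16.6% higher and 12% lower, and 39.8% had an unadjusted p under 0.05. For N108A, the mitochondrial RNA polymerase and mRNA turnover list had 0 of 7 genes called by limma (1 at an unadjusted p under 0.05), and the factors for splicing of COX1 and COB introns 0 of 12 (4 at an unadjusted p under 0.05). Of the genes for translation of COX1, ATP6 and ATP8, 2 of 9 rose, NCA3 (0.44 ± 0.11) and MSS51 (0.28 ± 0.08), the activator of COX1 mRNA translation, and 1 fell, AEP3 (-0.20 ± 0.05), which stabilises the ATP8 and ATP6 mRNA. Of 11 genes for the translation or stability of other mitochondrial mRNAs, 1 fell, ATP25 (-0.19 ± 0.06). Of the 13 genes for mitochondrial DNA maintenance, 1 fell, ABF2 (-0.17 ± 0.04), which packages mitochondrial DNA. The nuclear subunits of cytochrome c oxidase split, with COX5B higher (0.47 ± 0.15) and COX4 lower (-0.39 ± 0.10) of 9. Its assembly factors had COX17, a copper chaperone, higher (0.51 ± 0.11) and 3 of 18 lower, among them PNT1 (-0.26 ± 0.06) and CMC1 (-0.20 ± 0.06).

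For the ATP synthase, 2 of 21 nuclear genes rose in N108A, STF1 (0.77 ± 0.13) and STF2 (0.75 ± 0.15), which act with the inhibitor of the enzyme, and ATP10, an assembly factor, fell (-0.19 ± 0.05). The retrograde response, the signalling from mitochondria to nuclear genes, had 3 of 10 higher in N108A, led by CIT1 (0.43 ± 0.09) and ACO1 (0.42 ± 0.07), and 2 lower, among them RTG1 (-0.25 ± 0.08), a transcription factor of the response. In G44A 23.9% of all probes were called higher and 22.4% lower, and several of the list counts that follow are close to these shares. The retrograde list had 6 higher and 3 lower of 10 in G44A, led by CIT1 (0.83 ± 0.09), DLD3 (0.73 ± 0.11) and CIT2 (0.71 ± 0.15). The splicing factors had 3 of 12 higher in G44A, CBP2 (0.51 ± 0.12), NAM2 (0.44 ± 0.06) and CCM1 (0.26 ± 0.07), and the polymerase and turnover list had DSS1 (0.22 ± 0.07), RPO41 (0.19 ± 0.07) and MTF1 (0.17 ± 0.06), the partner of the polymerase, higher and 1 lower, 4 of 7, where 46.3% of all probes were called. The subunits of cytochrome c oxidase had COX5B (0.60 ± 0.15) and COX6 (0.28 ± 0.08) higher in G44A, 2 of 9. The list for translation of COX1, ATP6 and ATP8 had 3 higher and 1 lower of 9 there, with ATP22 (0.31 ± 0.08), NCA2 (0.23 ± 0.06) and COA1 (0.17 ± 0.06) the largest changes, and the list for other mitochondrial mRNAs 3 higher and 1 lower of 11. The cytochrome c oxidase assembly factors had 5 higher and 5 lower of 18, with COX15 (0.62 ± 0.07), COX17 (0.59 ± 0.11) and CMC1 (-0.44 ± 0.06) the largest. The ATP synthase list had 3 higher and 1 lower of 21, led by STF2 (1.55 ± 0.15) and STF1 (0.70 ± 0.13), and mitochondrial DNA maintenance had 4 higher and 4 lower of 13, with MSH1 (0.44 ± 0.06) and ILM1 (-0.36 ± 0.07) the largest.

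In K44A, where 15.9% of all probes were called higher and 13.6% lower, the polymerase and turnover list had SLS1 (-0.28 ± 0.09), PET127 (-0.17 ± 0.05) and SUV3 (-0.17 ± 0.05) lower, 3 of 7, and the cytochrome c oxidase subunits had COX4 (-0.38 ± 0.10), COX7 (-0.31 ± 0.09) and COX8 (-0.26 ± 0.09) lower, 3 of 9. The retrograde list had 4 of 10 higher in K44A, led by CIT1 (0.79 ± 0.09), IDH1 (0.58 ± 0.09) and ACO1 (0.49 ± 0.07). It also changed in mutants where 0 of the 9 mitochondrial genes were called. Of its 10 genes, 6 were higher and 0 lower in Y98A, 4 higher and 1 lower in V81A, and 4 higher and 2 lower in Q5A. Of all probes 13.9%, 16.8% and 7.7% were called higher in these mutants. In R40A 1 was higher, and in R53A and L109A 0 were called. V81A, in which 0 of the 9 mitochondrial genes were called, had 16 of 21 nuclear ATP synthase genes lower and 2 higher (median -0.39), and 5 of 9 cytochrome c oxidase subunits lower and 1 higher, where 17.1% of all probes were called lower.

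Set against the common reference, the nuclear lists differed in direction, where 43.7% of all probes were called higher and 43.5% lower. All 9 nuclear subunits of cytochrome c oxidase and 18 of 21 nuclear ATP synthase genes were called higher in the mean of the 11 strains, with medians of 0.19 and 0.22 against 0 over all probes. The 9 mitochondrial genes had a median of 0.12. Of the splicing factors 7 of 12 were higher and 5 lower, led by MRS2 (-0.26 ± 0.02), PET54 (0.24 ± 0.02) and MSS116 (0.24 ± 0.01), an RNA helicase for these introns. The polymerase and turnover list had 1 of 7 higher and 6 lower (median -0.10), and mitochondrial DNA maintenance 5 of 13 higher and 7 lower. The genes for translation of COX1, ATP6 and ATP8 had 3 of 9 higher and 4 lower, and those for other mitochondrial mRNAs 4 of 11 higher and 6 lower. The cytochrome c oxidase assembly factors had 10 of 18 higher and 6 lower, and the retrograde list 5 of 10 higher and 4 lower. Of the 10 other probes of the mitochondrial genome, 4 were higher and 5 lower. As stated above, this comparison includes the strain background.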

How the data were processed

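Each of the 22 two-colour arrays measured 1 culture against a pool of reference RNA. The scanner files hold spot intensities per channel, deposited by the authors before normalisation per the file headers. The deposited value table holds log2 ratios that the authors made with print-tip loess, per the deposited protocol text, and its sign was turned here on 3 arrays that correlated with the scanner ratios at -0.985 to -0.982; its column medians ran from -0.053 to 0.033. The authors' deposited table of comparisons holds log2 fold changes and corrected p-values. Intensities were background-corrected (normexp, offset 50) and normalised by loess within each array with limma 3.58.1 in R 4.3.3, duplicate spots were averaged, and log2 ratios of strain over reference were formed for 6388 gene probes.

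All 22 arrays entered 1 limma fit with a mean for each of 11 strains and a term for the dye, which is also the culture letter and so acts as a replicate block. P-values were adjusted by the Benjamini-Hochberg method over all probes, with a threshold of 0.05. Cultures of the same letter deviated together, with r over 0.1, in 52 of 55 pairs of strains (median r 0.387, lowest -0.125); the letter also marks the dye, so culture set and dye cannot be told apart. With 2 cultures per strain, the number of arrays limits the precision. The fit was tested on data simulated for N108A against hht2-wt. It called 92% of 100 genes changed by 0.5 on the log2 scale and 99% of 100 changed by 1. Of 6188 unchanged genes it called 0.15%. Smaller changes, such as most of those called between mutants and controls, were not simulated. The median SE was 0.11 for the 9 genes and 0.068 for all probes.

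The 9 genes and the lists were chosen with earlier results of these data known. All 9 genes are described in every comparison, the 5 most and 3 least alike probes by correlation, and from each list at most the 3 called genes with the largest change. Names and gene order came from the R64 gene table, which holds no probe positions. The alternatives tried were other background corrections, normalisations, controls, spots and sets of arrays, the deposited value table, leaving out dim probes, no replicate block, and leaving out each culture.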

Additional observations from a re-analysis of the deposited data

Results flagged for a closer look

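The values below stood out because 2 mutants of the same histone differed from each other by a limma test of the difference itself, which was added after the values were seen. Only N108A was tested in this way, against G44A and L109A. N108A had the lowest mean for all 9 genes, and G44A the highest for COX1, AI4 and AI5_ALPHA. A choice of pair from these means favours a difference, and the adjusted p-values do not allow for it. N108A was lower than G44A for COX1 (-0.258, adjusted p = 0.00135), AI1 (-0.546, adjusted p = 0.00856), AI2 (-0.508, adjusted p = 0.0142) and AI3 (-0.454, adjusted p = 0.00573). It was also lower than G44A for AI4 (-0.671, adjusted p = 0.000434), AI5_ALPHA (-0.719, adjusted p = 0.000354), AI5_BETA (-0.479, adjusted p = 0.00139) and ATP8 (-0.335, adjusted p = 0.0348). N108A was lower than L109A for AI4 (-0.31, adjusted p = 0.0452), AI5_ALPHA (-0.365, adjusted p = 0.0265), AI5_BETA (-0.409, adjusted p = 0.00484) and ATP8 (-0.384, adjusted p = 0.0239). All are differences of log2 ratios. Both sets of values rest on the same 2 N108A arrays.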

How the results depend on the processing

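Direction was followed value by value for N108A and G44A against hht2-wt, AI5_BETA in K44A, and the mean of the 11 strains against the reference. No called value among these turned its direction under any alternative that was run. The other called values were followed by their counts only. Of the pairs of gene and mutant, 5 were called lower; the count was 8 with a normexp offset of 10, 3 with median centring in place of loess, 8 against the control of the other histone, 8 against both controls together, and 2 to 6 with 1 culture left out (2 without hht2-wt culture a). The 3 called higher became 1 to 4 with 1 culture left out. The 4 called lower in N108A became 8 against the control of the other histone, 7 against both controls and 1 to 4 with 1 culture left out. The 3 called higher in G44A became 1 against the control of the other histone and 1 to 3 with 1 culture left out (1 without G44A culture a or hht2-wt culture b). Against the reference, 50 pairs of gene and strain were called higher, with 43 to 56 under other settings and 49 to 52 with 1 culture left out. The 6 called lower became 3 with median centring, 14 with the deposited value table and 3 to 6 with 1 culture left out (3 without N108A culture b). The F test called 7 genes, 3 with median centring and 7 to 8 with 1 culture left out. Without the replicate block, 4 pairs of gene and mutant were called lower and 3 higher, and 3 genes were called lower in N108A. The cause of these shifts was not tested, and the share of all probes called was not counted under the alternatives. The filter on dim probes removed 0 of the 9 genes. The offset of 10 was chosen after seeing the data.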
